A study of Homo sapiens with 2 samples.

Results

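The genes described here build, fold, glycosylate, sort and destroy proteins in the endoplasmic reticulum (ER). They are 48 named genes: chaperones, disulfide isomerases, the translocon, the N-glycosylation machinery, ER-associated degradation (ERAD), the stress sensors, and ERMP1, LMAN1 and PORCN. A member was read by the probe sets annotated to that gene alone, and where several did, the one whose log2 signal averaged highest over both arrays gives its value. Of the 48 members, 46 were measured, among 12931 measured named genes. SYVN1 and PORCN were not analysed here. The study used PC-3, a human prostate cancer line derived from a bone metastasis, and compared 1 array of cells that had received a control shRNA vector (siCONTROL_PC-3) with 1 array of cells that had received a vector against SHISA2 (siSHISA2_PC-3). Both arrays were labelled with biotin from 250 ng of total RNA. Transfection time, number of cultures and hairpin sequences are not given in the sources used here. With 1 array per group there was no replicate check, so no difference was tested and no p-value was computed. Precision is limited throughout by there being 2 arrays.

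Proteins bound for the cell surface or for secretion enter the ER through the SEC61 channel, receive N-linked sugars from oligosaccharyltransferase while they are still being made, and fold with the help of chaperones and disulfide isomerases. Chains that fail to fold are pulled back into the cytosol and destroyed by the proteasome, which is ERAD. When unfolded chains build up, the sensors IRE1, PERK and ATF6 raise the output of chaperone and ERAD genes, which is the unfolded protein response. Some Shisa proteins are themselves ER proteins, known to hold Frizzled and fibroblast growth factor receptors there before they mature.

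SHISA2, the targeted gene, read 3536 with the control vector and 1506 with the SHISA2 vector, or 42.6% of control. As a yardstick for technical scatter, the log2 ratios of a pair of probe sets for the same gene were compared. The SD of their difference, divided by the square root of 2, was 0.155 where the higher signal exceeded 387.3 and lower signals were raised to it. It was 0.286 over all measured probe sets. It covers neither cultures nor arrays, and ratios below are log2 of knockdown over control. Bright means that both signals were above 387.3, the 75th percentile of all signals, and 45 of the 46 measured members were bright. Epithelial markers (4 of 6 measured) summed to 22389 in the control and 21742 in the knockdown: KRT18 read 18340 and 17533, KRT8 2283 and 1990, KRT7 1395 and 1890 (ratio 0.44) and EPCAM 353.6 and 313.1. CDH1 and KRT19 were not above the floor of 47.9, the median signal. Summed over each list, leukocyte markers (1 of 3 measured) read 51.4 and 73.5, endothelial markers (2 of 4) 279.7 and 400.4, fibroblast markers (2 of 6) 917 and 698.7 and neuroendocrine markers (2 of 4) 452.5 and 381.3, control first. Their part in the ratios below was not tested. PTPRC, CD14, VWF, KDR, LUM, COL3A1, CHGA and SYP were under the floor in both arrays. Others were above it: COL1A1 read 787.2 and 577 (-0.45, with its other probe sets above 0, up to 0.92). ENO2 read 410.1 and 287.1 (-0.51) and CDH5 155.9 and 261.5 (0.75). Prostate androgen response markers (2 of 4 measured) summed to 287.7 and 333.4. The 3' to 5' signal ratio, a sign of RNA quality, was 5.0 and 4.79 for ACTB and 1.55 and 1.36 for GAPDH.

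Most members read slightly lower after SHISA2 knockdown. Of the 46 measured members 34 had a ratio below 0, or 34 of the 45 bright ones, against 47.8% of all measured genes and 49.8% of bright genes. The median over members was -0.07, beside 0.01 over all measured genes and 0.00 over bright genes. Ratios of 32 members lay within 0.155 of 0, 12 were lower by at least that much and 2 higher, where 21.5% of bright genes were lower and 18.8% higher by that much (25.5% and 27.4% of all measured genes). A ratio of 0.32 in size served as a threshold in both directions, with no test behind it. Past it on the low side were 2 members, ERMP1 and PDIA4, where 12.0% of all measured genes and 6.99% of bright genes were. No member was past it on the high side, against 13.1% and 4.69%. EDEM3, at -0.30, stood just short of it, and past it after median centring (-0.33). PDIA4 was no longer past it with averaged probe sets (-0.295) or without _x_at and _s_at probe sets (-0.24), and averaging put LMAN1 past it (-0.325). In bulk RNA, fewer cells with a transcript and less of it per cell cannot be told apart.

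**Figure D1:**
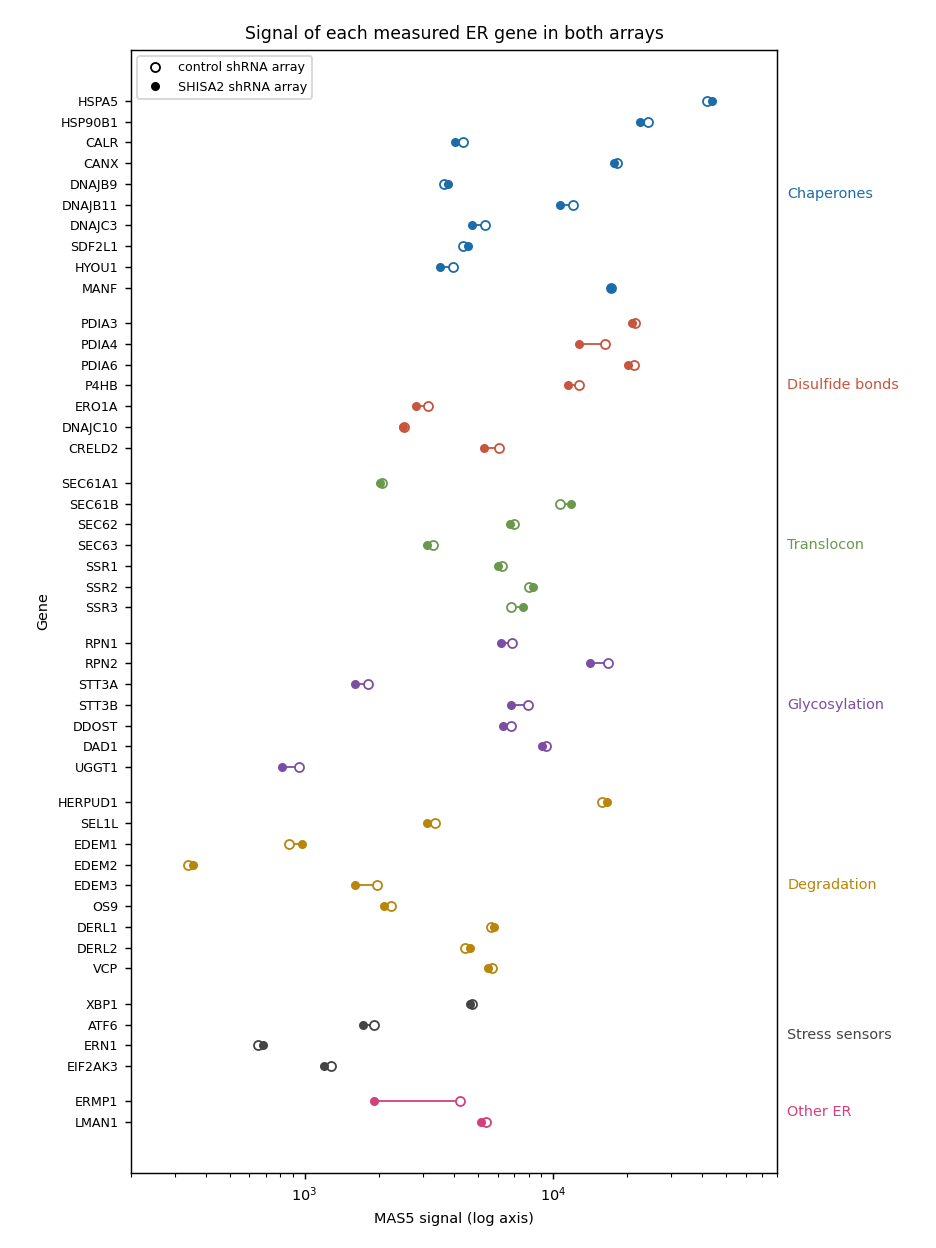
Signal of each of the 46 measured ER genes (rows, grouped by role) in the control array (open circles) and the SHISA2 knockdown array (filled circles), on a log axis. The circles of ERMP1, at 4220 and 1900, lie farthest apart on this log axis, which shows ratios and not differences in signal. Those of PDIA4, at 16243 and 12756, come next.

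ERMP1, a membrane metallopeptidase of the ER, had by far the lowest ratio. Its brighter probe set read 4220 in control cells and 1900 after knockdown, or 45.0% of control (ratio -1.15), and its other probe set 1404 and 668.2 (-1.07). Among the 7650 bright genes 2 had a ratio that low, ERMP1 and SHISA2 itself, and 0.0523% of bright genes and 0.565% of all measured genes were at least 2-fold lower. No member was 2-fold higher, against 0.0654% and 0.92%. ERMP1 was put on the list with this result known, so its place at the low end is a description. Apart from ERMP1, the members' knockdown signals ran from 78.5% to 112.3% of control. The median without ERMP1 was -0.07.

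Promoters of several ER genes are known to carry sequences through which the unfolded protein response acts, and those found in the members are shown here for that reason. RefSeq promoter windows (GRCh38.p14, 250 bases before and 50 after each transcription start) were found for 44 members. The ER stress element, which is CCAAT, then 9 bases of any kind, then CCACG, searched on both strands, is known to be bound by ATF6 together with NF-Y. It was present in 27 of 35116 windows (0.0769%), or 25 of 27305 genes (0.0916%), and in 7 of the 44 members (15.9%). The ER stress element II is ATTGG, 1 base of any kind and CCACG. It was present in 19 windows (0.0541%), or 19 genes (0.0696%), and in 3 of the 44 members (6.82%). The capitals mark the fixed bases of each element, read on the strand that carries it, with 5 bases on either side.
HSPA5: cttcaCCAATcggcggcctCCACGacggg
HSP90B1 distal: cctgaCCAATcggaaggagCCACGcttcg
HSP90B1 proximal: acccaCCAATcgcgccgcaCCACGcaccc
CALR: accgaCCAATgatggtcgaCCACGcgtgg
CANX: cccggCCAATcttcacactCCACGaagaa
PDIA6: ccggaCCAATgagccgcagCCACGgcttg
CRELD2: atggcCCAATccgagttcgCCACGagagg
XBP1: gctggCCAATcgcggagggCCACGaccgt
SDF2L1: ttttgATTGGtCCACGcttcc
HYOU1 distal: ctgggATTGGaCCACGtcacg
HYOU1 proximal: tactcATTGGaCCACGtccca
HERPUD1: cgccgATTGGgCCACGttggg

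All coordinates in this paragraph are those of the printed bases, so they include the 5 flanking bases on either side of each element. The HSPA5 element lies within chr9:125241386-125241414 on the minus strand, the strand of the gene, and its CCAAT begins 66 bases before the start. HSP90B1 has 1 element in each orientation, at chr12:103930211-103930239 (plus) and chr12:103930316-103930344 (minus). Those of CALR at chr19:12938379-12938407 and of CRELD2 at chr22:49918549-49918577 are on the minus strand, opposite to their genes. CANX has its element at chr5:179698773-179698801 (plus), in the windows of several start sites, for 1 of which it spans the start itself. The element of PDIA6 is at chr2:10812848-10812876 (minus) and that of XBP1 at chr22:28800598-28800626 (minus). The ER stress elements II are at chr22:21642109-21642129 (minus) for SDF2L1, chr11:119057375-119057395 and chr11:119057269-119057289 (both plus, opposite to the gene) for HYOU1, and chr16:56932020-56932040 (plus) for HERPUD1.

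The ratios of the 10 members with either element lay within the range of the other members. Their median was -0.06, with 7 of 10 below 0 and a range from -0.20 (CRELD2) to 0.07 (SDF2L1). The 7 with the ER stress element had a median of -0.07, with 6 below 0. The 3 with the ER stress element II had a median of 0.06, with 1 below 0. The 32 measured members whose windows held neither had a median of -0.08, with 24 of 32 below 0. XBP1 is known to bind the shorter unfolded protein response element, TGACGTGG. This element was in 256 windows (0.729%), or 253 genes (0.927%), and in 5 of 44 members (11.4%): HYOU1, DNAJC10, SEC62, SSR3 and VCP. In HYOU1 it shares 5 bases with an ER stress element II. The median ratio of those 5 members was -0.05, with 4 below 0. A match is a description of letters and not of binding, and the list holds known targets of this response, so its share of matches describes the list.

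**Figure D2:**
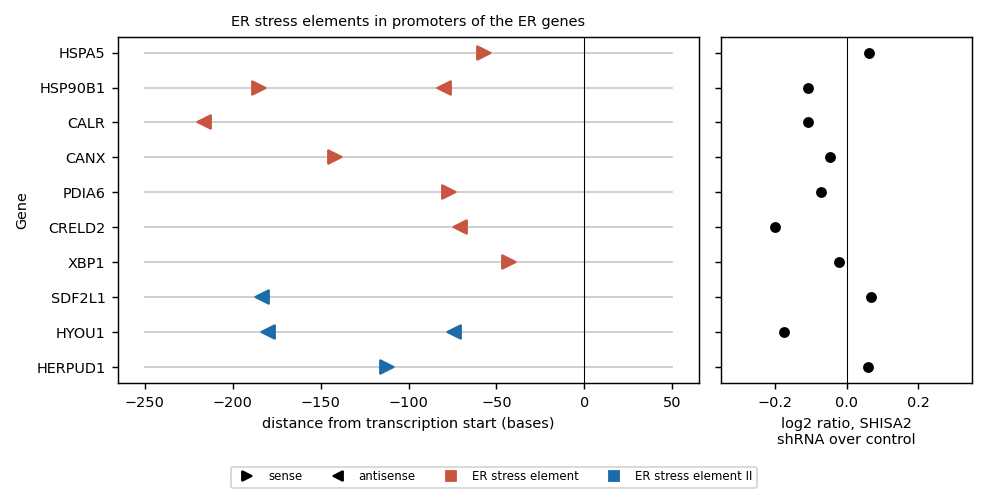
Place of each ER stress element (red) and ER stress element II (blue) relative to the transcription start, in bases, with the arrowhead giving its orientation, beside the log2 ratio of that gene on the right. With each gene's first listed start as the origin, elements lie between 225 and 34 bases before it, and the ratios span -0.20 to 0.07 on both sides of 0.

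For comparison, 250 bases before the start of HSPA5, the gene of the central ER chaperone, and of ERMP1 are printed with every CCAAT and CCACG box of either strand in capitals. The HSPA5 stretch (chr9:125241344-125241593, minus strand) holds 4 CCAAT boxes and 1 CCACG box. The ERMP1 stretch (chr9:5833118-5833367, minus strand) holds 1 CCAAT box and 0 CCACG boxes, so these letters hold no complete element.
HSPA5: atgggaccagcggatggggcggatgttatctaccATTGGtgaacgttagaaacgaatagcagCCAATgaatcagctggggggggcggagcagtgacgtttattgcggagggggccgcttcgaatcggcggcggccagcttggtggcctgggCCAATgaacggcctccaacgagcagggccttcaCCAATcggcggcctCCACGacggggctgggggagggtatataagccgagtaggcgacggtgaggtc
ERMP1: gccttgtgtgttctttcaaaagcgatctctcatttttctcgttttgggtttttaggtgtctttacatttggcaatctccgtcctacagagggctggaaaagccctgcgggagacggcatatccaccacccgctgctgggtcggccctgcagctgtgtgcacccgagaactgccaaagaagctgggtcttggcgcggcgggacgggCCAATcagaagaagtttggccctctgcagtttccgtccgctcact

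Chaperones read on both sides of 0, with a median ratio of -0.08. Of the 10 genes 7 were below 0, and 8 after quantile normalization or removal of a loess trend. None reached 0.32 in either direction on its chosen probe set, where 6.99% of bright genes were lower and 4.69% higher. With 10 genes, that count is near those shares. Of their 22 measured probe sets, all bright, 12 were below 0, against 50.4% of bright named probe sets. HSPA5, the Hsp70 of the ER known as BiP, read 41789 in control cells and 43651 after knockdown (0.06). Its other probe set read -0.13, and its ratio passed to the other side of 0 under quantile normalization and loess. HSP90B1, the ER Hsp90 GRP94, read 24248 and 22507 (-0.11, with 0.10 on its other probe set). The lectin chaperones, which hold glycoproteins by their trimmed sugars, were calreticulin at 4349 and 4035 (CALR, -0.11) and calnexin at 18234 and 17652 (CANX, -0.05). All 4 probe sets of CANX were below 0, while CALR read 0.04 and -0.04 on its other probe sets.

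The J-domain partners of HSPA5, which stimulate its ATPase, read on both sides of 0. DNAJB9 read 3641 and 3779 (0.05) with all 3 probe sets above 0, and DNAJB11 12086 and 10713 (-0.17). DNAJC3, which also inhibits PERK, read 5337 and 4719 (-0.18) on its brightest probe set, but its other 3 probe sets ran from 0.03 to 0.47. Its direction thus depends on the probe set. HYOU1, a nucleotide exchange factor of HSPA5, read 3953 and 3506 (-0.17). SDF2L1, a stress-induced cofactor of DNAJB11, read 4339 and 4551 (0.07), and MANF, a secreted stress protein that binds HSPA5, 17150 and 17124, a ratio just below 0.

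Genes of disulfide bond formation were below 0 in 7 of 7 cases, with a median of -0.15, and in 6 of 7 after quantile normalization or loess. PDIA4, an isomerase with several thioredoxin domains, read 16243 in control cells and 12756 after knockdown, or 78.5% of control (-0.35), and its other probe set 4391 and 3715 (-0.24). Of the bright genes 5.74% had a lower ratio than PDIA4. CRELD2, a stress-induced protein with isomerase activity, read 6086 and 5299 (-0.20). P4HB, the founding protein disulfide isomerase, read 12751 and 11528 (-0.15), and a dimmer probe set read 0.16. PDIA6 read 21192 and 20162 (-0.07), with all 4 probe sets below 0, down to -0.19.

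PDIA3, which works with calnexin and calreticulin on glycoproteins, read 21392 and 20932 (-0.03) on its brightest probe set. Its dimmer ones read 1052 and 778.3 (-0.43) and 647 and 483.6 (-0.42). All 4 probe sets of DNAJC10, a reductase that also has a J domain, were below 0, from -0.01 on the brightest to -0.55, and the brightest passed to the other side of 0 under quantile normalization and loess. ERO1A, the oxidase that recharges the isomerases, read 3146 and 2812 (-0.16), but 0.12 and 0.19 on its other probe sets. Counting every measured probe set of the 7 genes, 17 of 20 were below 0, against 47.9% of all named probe sets.

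**Figure D3:**
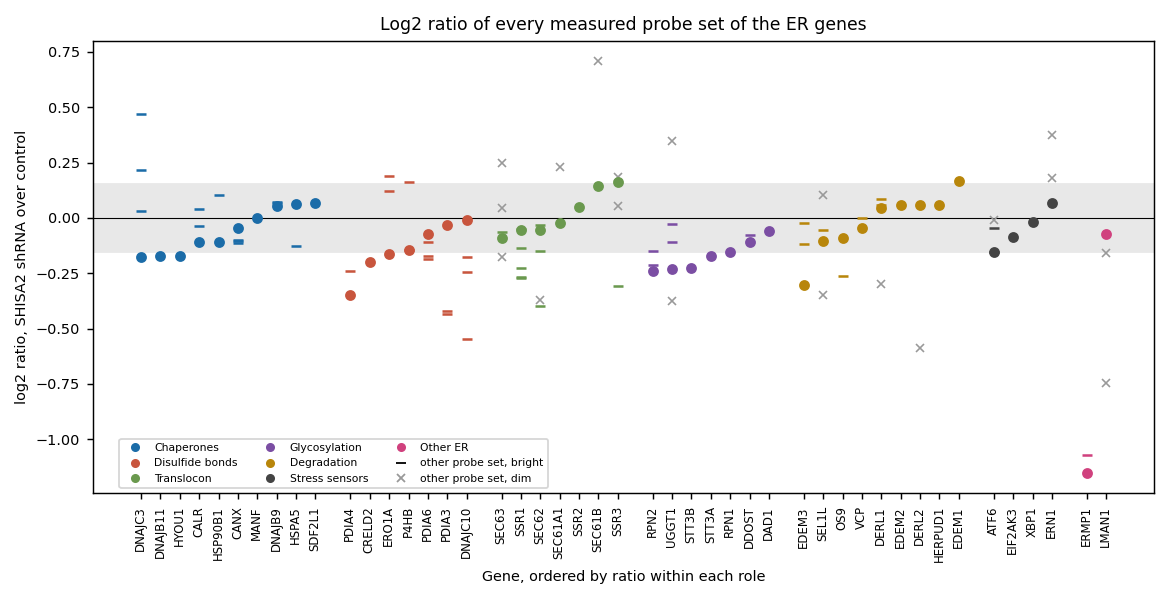
Log2 ratio of every measured probe set of the 46 ER genes, with the chosen probe set as a filled circle, other bright ones as dashes and dim ones as crosses, and a grey band of 0.155 on both sides of 0. All chosen probe sets of the disulfide and glycosylation genes lie below 0, and ERMP1 alone lies near -1.1 on both of its probe sets.

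Glycosylation genes had the lowest median of the folding, transport and degradation roles, -0.17, although averaged probe sets put the disulfide genes lower (-0.20 against -0.15). All 7 of 7 were below 0 as deposited and after median centring, quantile normalization and loess. All 12 of their bright probe sets were below 0, against 50.4% of bright named probe sets. None of the 7 genes reached -0.32, where 6.99% of bright genes did. Oligosaccharyltransferase, which moves the sugar tree from its lipid carrier to asparagine, has STT3A or STT3B as its catalytic subunit. STT3A, which works beside the translocon, read 1804 and 1604 (-0.17), and STT3B, which also modifies finished chains, 7944 and 6789 (-0.23). Among the accessory subunits, ribophorin II read 16694 and 14120 (RPN2, -0.24), with its other probe sets at -0.15 and -0.21. Ribophorin I read 6883 and 6196 (RPN1, -0.15), DDOST 6818 and 6313 (-0.11) and DAD1 9405 and 9027 (-0.06). UGGT1, the folding sensor that adds glucose back to misfolded glycoproteins, read 948.2 and 809 (-0.23), with 4 of its 5 probe sets below 0.

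The remaining oligosaccharyltransferase subunits, which are not members, split. MAGT1 (-0.21) and TUSC3 (-0.15), the oxidoreductase subunits that go with STT3B, and OSTC (-0.03) were below 0. The small subunits KRTCAP2 (0.18), OST4 (0.15) and TMEM258 (0.10) were above 0 as deposited and with each of the other scalings. Of the 12 subunits 9 were below 0, with a median of -0.13.

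Translocon genes read on both sides of 0, with 4 of 7 below 0 and a median of -0.02, which came to 0.02 when each gene's probe sets were averaged. Of their 17 bright probe sets 14 were below 0 (82.4%), against 50.4% of bright named probe sets, but most of the 17 were of SSR1 or SEC62. SEC61A1, the channel itself, read 2053 and 2022 (-0.02), and SEC61B, its small beta subunit, 10737 and 11880 (0.15). SEC62, which helps chains enter after translation, read 6975 and 6723 (-0.05) with all 5 probe sets below 0, down to -0.40. SEC63, the J-domain protein that recruits HSPA5 to the channel, read 3308 and 3109 (-0.09).

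The TRAP complex, which helps weak signal sequences to insert, was split by subunit. SSR1 read 6255 and 6018 (-0.06), and all 6 of its probe sets were below 0, down to -0.27. SSR2 read 8025 and 8298 (0.05). SSR3 read 6759 and 7555 (0.16) on its brightest probe set but 1706 and 1378 (-0.31) on its other bright one. SSR4, the remaining subunit and no member, read 0.12.

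ERAD genes were spread evenly around 0, with 4 of 9 below it and a median of 0.05. Averaging each gene's probe sets gave 6 of 9 below 0 and a median of -0.03. Without _x_at and _s_at probe sets, 5 of these genes kept a value and 0 of the 5 were below 0 (median 0.06). The EDEM proteins, which trim mannose from misfolded glycoproteins to mark them for removal, read on both sides of 0. EDEM1 read 866.6 and 972.8 (0.17), the highest ratio of all members, EDEM2 340.8 and 355.1 (0.06), and EDEM3 1964 and 1593 (-0.30, with -0.02 and -0.12 on its other probe sets). EDEM2 was the member below the bright threshold. OS9, a lectin that delivers such proteins to the ubiquitin ligase, read 2228 and 2092 (-0.09, and -0.26 on its other probe set).

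SEL1L, the scaffold of the ERAD ligase, read 3355 and 3119 (-0.11). HERPUD1, a stress-induced part of the same complex, read 15836 and 16510 (0.06). The derlins, membrane proteins of the exit channel, were DERL1 at 5616 and 5795 (0.05) and DERL2 at 4435 and 4623 (0.06), although a dim probe set of DERL2 read -0.59. VCP, the ATPase that pulls chains out of the membrane, read 5683 and 5507 (-0.05).

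Of the 3 stress sensors and XBP1, 3 of these 4 genes were below 0, with a median of -0.05. ATF6 read 1913 and 1721 (-0.15), with all 4 probe sets below 0. PERK, encoded by EIF2AK3, read 1275 and 1203 (-0.08), and IRE1, encoded by ERN1, 650.7 and 682.5 (0.07, with 0.37 on a dim probe set). XBP1, whose mRNA IRE1 splices, read 4716 and 4649 (-0.02). The probe sets do not tell spliced from unspliced XBP1. LMAN1, the cargo receptor that carries glycoproteins from the ER towards the Golgi, read 5407 and 5134 (-0.07), with its other 2 probe sets, both dim, at -0.16 and -0.74.

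Agreement between probe sets was partial. Of the 31 members with several measured probe sets, 14 had all of them below 0, 3 had all above 0 and 14 had both signs. Of 50 bright probe sets that were not the chosen ones, from 26 genes, 37 were below 0 (74.0%), against 50.4% of bright named probe sets. In the translocon group 10 of 10 such probe sets were below 0, and in the chaperone group 5 of 12. The 10 came from 4 genes, mostly SSR1 and SEC62, and the 12 from 6 genes, so several read the same transcript. As deposited and with the 3 other scalings, 33 members were below 0 each time, 11 above 0 each time, and HSPA5 and DNAJC10 were on both sides. Over all settings, including other floors and other choices of probe sets, 29 were below 0 each time, 9 above 0 each time and 8 on both sides. Those 8 were HSPA5, DNAJC10, DNAJC3, ERO1A, SEC61A1, DERL1, DERL2 and VCP.

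**Figure D4:**
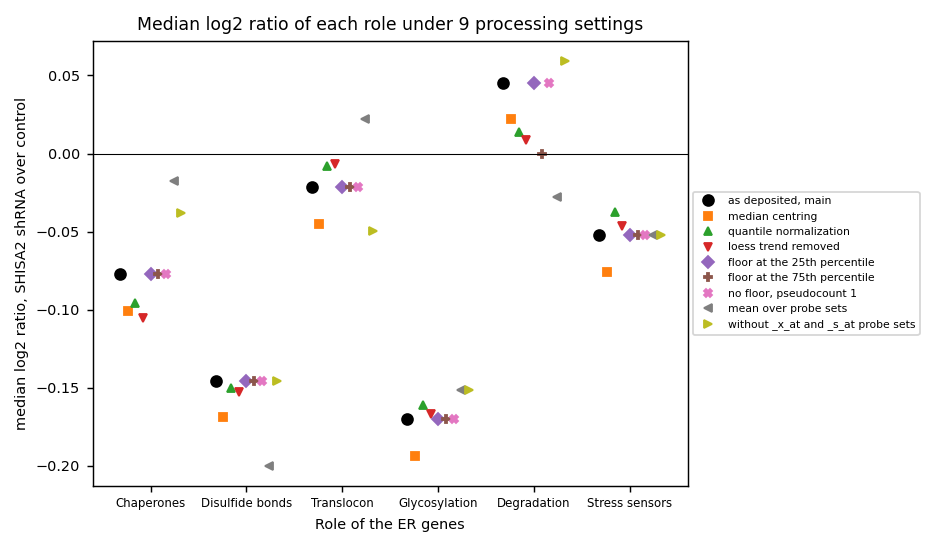
Median log2 ratio of the measured members of each role under the main setting (black circle) and 8 alternatives. Medians of the disulfide and glycosylation genes lie between -0.20 and -0.15 in every setting shown, and those of the translocon and degradation genes come out on both sides of 0.

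Of 186 other genes of these pathways, listed by function, 170 were measured, 99 were below 0 and the median was -0.02. At or below -0.32 were 13 (7.65%) and at or above 0.32 were 5 (2.94%), against the 12.0% and 13.1% of all measured genes given above. Among the 154 bright ones these were 10 (6.49%) and 4 (2.60%), against 6.99% and 4.69% of bright genes. The other chaperones and folding factors had 17 of 20 below 0 and a median of -0.17, and the other disulfide genes 15 of 18 and -0.11. Translocon and targeting genes had 11 of 22 below 0 (median 0.02), glycosylation genes 14 of 28 (0.02), ERAD genes 16 of 29 (-0.01), stress response genes 12 of 24 (0.00) and transport and other ER genes 14 of 29 (0.01). Set side by side, member and other glycosylation genes had medians of -0.17 and 0.02, and member and other disulfide genes -0.15 and -0.11. Neither difference was tested.

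Among the other folding genes, the J-domain protein DNAJB12 read 1585 and 1191 (-0.41), with all 4 probe sets below 0, the nearest to 0 at -0.01. MESD, the chaperone of the Wnt coreceptors LRP5 and LRP6, read 3707 and 2881 (-0.36). Its 3 probe sets were below 0, the nearest to 0 at -0.04. The prolyl isomerases FKBP9 (-0.27) and FKBP14 (-0.23) followed. In the disulfide list the thioredoxin-domain proteins TXNDC16 (-0.46), TMX4 (-0.44, and 0.02 on its other probe set) and TXNDC12 (-0.26) had the largest ratios, with the oxidase ERO1B. ERO1B read -0.36, and -0.01 on its other probe set.

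In the targeting list GET4, part of the tail-anchored protein pathway, read 539.8 and 823.5 (0.61). TRAM2 read -0.30 (-0.02 on its other probe set), and the signal peptidase subunits SPCS3 -0.29 and SPCS2 -0.24. SPCS2 had 2 other probe sets above 0, and SPCS3 1. In the glycosylation list ALG3, a mannosyltransferase, read 416.8 and 637.1 (0.61) and DPM2, a subunit of dolichol-phosphate mannose synthase, 539 and 785.4 (0.54), each on 1 probe set. MAN1B1 (-0.29) and the alpha subunit of glucosidase II, GANAB (-0.29, and -0.76 on its other probe set), were lower.

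In the ERAD list the mannosidase MAN1A1 read -0.38, the membrane scaffolds ERLIN1 -0.26 (0.09 on its other probe set) and ERLIN2 -0.23, and the ubiquitin ligase RNF185 0.25. In the stress response list DDIT3, the transcription factor CHOP, read 9941 and 12544 (0.34), and PPP1R15A, which restores translation after PERK has acted, 922.3 and 1081 (0.23). CREB3L2, a relative of ATF6, read -0.34 (-0.01 on its other probe set) and MBTPS1, the protease that cuts ATF6, -0.26 (0.88 on the other). In the transport list the cargo receptor TMED10 read 7235 and 5320 (-0.44, and -0.12 on its other probe set). The COPII coat protein SEC23A read 7806 and 6037 (-0.37, and -0.25 on its other probe set). The peptide trimming enzyme ERAP1 read -0.36 (0.08 on 1 of its 4 probe sets) and the acyltransferase MBOAT7 0.21 (-0.25 on its other).

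Folding and degradation genes outside the ER stood mostly on the other side of 0. Of 32 measured cytosolic and mitochondrial chaperones 30 were above 0 and 2 below, with a median of 0.11. Of 28 proteasome subunits 21 were above 0 and 7 below, with a median of 0.07. Over all measured genes 47.8% were below 0, and over bright genes 49.8%. After quantile normalization 23 chaperones were above 0 and 8 below (median 0.06), with 18 proteasome subunits above 0 and 10 below (0.03). All measured genes then had 49.6% below 0, and bright genes 49.1%. In the same setting 34 of the 46 ER members were below 0, with HSPA5 now among them and DNAJC10 not, and their median was -0.08. With 1 array per group, these differences between lists could not be tested.

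**Figure D5:**
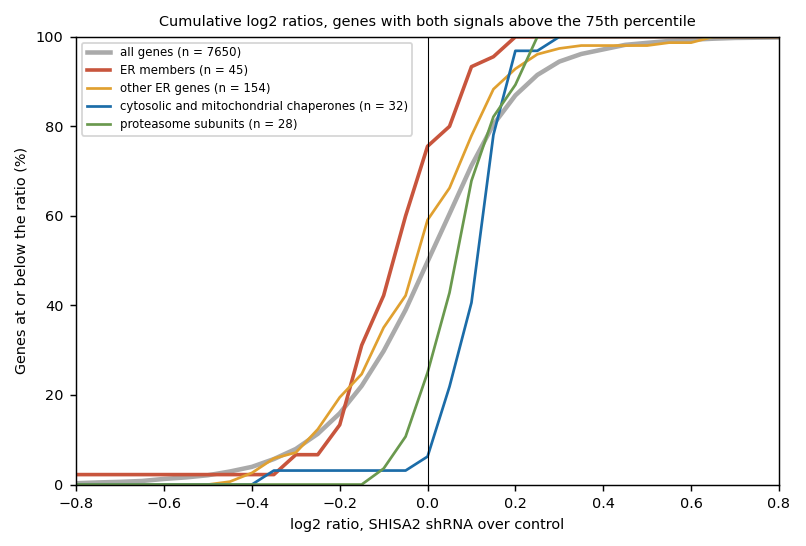
Cumulative share of genes (percent) at or below each log2 ratio, among genes with both signals above the 75th percentile, for the ER members, the other ER genes, cytosolic and mitochondrial chaperones, proteasome subunits and all genes. The ER members' curve (n = 45) lies left of that of all 7650 genes through the middle of the range, and the curves of the cytosolic chaperones (n = 32) and proteasome subunits (n = 28) lie to its right around 0.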

How the data were processed

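Expression was measured on 2 arrays of 54675 probe sets, 1 per group, as the sample titles name them. The authors deposited linear intensities per probe set, made with MAS5 per the submitters' processing notes. No MAS5 version is given in the sources. Its trimmed means were equal (500.1 on each array), and the values were used as scaled. Signals under 47.9, the median of both arrays without 62 control probe sets, were raised to it, and a probe set was measured if its higher signal exceeded that floor. Of 41097 probe sets with 1 gene symbol, 41043 matched the RefSeq gene table of GRCh38.p14, used for names. 1801 had several symbols and named no gene, and 11777 were not listed. A gene's value is the log2 ratio of the measured probe set that averaged highest in log2 signal, and a ratio of 0.32 is a size, not a test. Named genes are all members and, per list of other ER genes, the 4 largest ratios in size whose brighter signal exceeded 387.3. Members, lists and settings were chosen with earlier results of these data known. Promoters came from RefSeq. Python 3.11.15, pandas 2.3.3 and statsmodels 0.14.6 were used, and the procedure was tested on simulated data.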

Additional observations from a re-analysis of the deposited data

How the results depend on the processing

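Results were recomputed with median centring, quantile normalization, a loess trend removed (span 0.3), floors at the 25th (11.3) and 75th (387.3) percentiles, a pseudocount of 1 without a floor, averaged probe sets, and without _x_at and _s_at probe sets. The members' median was -0.10 after median centring. Averaging moved the chaperone median to -0.017 and the ERAD median to -0.028, and put 1 member, SEC61B (0.43, from a dim second probe set), past 0.32 on the high side. On the low side it left 2, ERMP1 and LMAN1 (-0.325) in place of PDIA4 (-0.295). Only ERMP1 was left on the lower side without _x_at and _s_at probe sets (1 of 36 members), at 1.5-fold (1) and at 2-fold (1). No other median or count over members moved by more than the yardstick divided by the square root of the number of genes, or by 1.5 times for counts. The count below 0 was 34 in the other settings with 46 or 45 members, and 24 of 36 without _x_at and _s_at probe sets. Of the members' recomputed ratios 347 moved by less than the yardstick and 10 by more. Leaving out ERMP1, an alternative added after the data were seen, gave a median of -0.07. Signal over background limits EDEM2 and the dim probe sets. No array could be left out, since each group has 1.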

Other observations

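Genes of the route out of the ER, named after their values were seen except where a rule had named them, were not uniformly placed. Of 12 COPII coat genes 4 were below 0, with a median of 0.06, and SEC23A at -0.37 was the lowest while SAR1A and PREB read 0.16 each. Of 5 measured p24 cargo receptors 4 were below 0, where 47.8% of all measured genes were. TMED10 read -0.44 (-0.12 on its other probe set), TMED5 -0.17 (its probe sets ran from -0.53 to 0.67) and TMED9 0.03. The retrieval receptors KDELR1 and KDELR3, which return escaped ER proteins, read -0.01 and 0.12. The other probe set of KDELR1 read -0.29, and those of KDELR3 ran from -0.24 to 0.25. Of 17 genes that assemble the lipid-linked sugar tree 9 were above 0, with a median of 0.06 that was -0.10 without _x_at and _s_at probe sets.

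Outside the members, 18 genes held an ER stress element in a promoter window and 9 of them were measured. Named after their values were seen, SERP1, an ER membrane protein of the translocon, read 10355 in control cells and 13025 after knockdown (0.33). Also so named, FICD, the enzyme that inactivates HSPA5 by adding AMP, read 363.4 and 370.6 (0.03). ERO1B read 1632 and 1269 (-0.36, and -0.01 on its other probe set). The median of the 9 was 0.01, with 3 below 0, where 47.8% of all measured genes were below 0. Of the 9, ALG12, FICD, GLRA2 and SYNPO were not bright. GLRA2 read 53.2 and 7.5, so the floor sets its ratio (-0.15), and SYNPO read 48.7 and 55.1. Outside the list, genes with this element thus read on both sides of 0. Within it 6 of 7 were below 0, all but HSPA5 (0.06), beside 25 of the 35 measured members whose windows lacked it. HSPA5 was itself below 0 after quantile normalization (-0.04) and loess (-0.03).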
